A study of Homo sapiens with 12 samples.

Results

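The genes of bone morphogenetic protein (BMP) and transforming growth factor beta (TGF-beta) signalling were followed in cultured human cells, labelled as neurons, after knockdown of ZCCHC17, a zinc knuckle protein. They were taken by name from a list of 36 genes that covers ligands, receptors, SMAD proteins, secreted or membrane antagonists and ID target genes. All 36 had a row among the 59653 gene symbols of the authors' count table, and all 36 passed the filter on low counts. The labels give the cell type as neuron, and name IMR-90, an established fibroblast line, as the source of the induced pluripotent stem cells. The library titles also carry the letters NPC, which the labels do not explain. Only this line was used, so every library shares 1 genetic background. The 6 siNC libraries are from cells given a negative control siRNA, and the 6 siZCC libraries from cells given ZCCHC17 siRNA. The labels name no culture age and do not say whether the libraries of a group came from separate cultures. P-values therefore measure the spread between these libraries, which may be technical.

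Library totals ran from 76115083 to 120023356 counts, and those of siZCC tended to be smaller. ZCCHC17 stood at 53.99 to 61.0 CPM (counts scaled to library size by the TMM method and a common total) in siNC and at 9.37 to 10.6 CPM in siZCC. Neuron markers were present (MAP2 at 1027 ± 104 CPM and DCX at 649 ± 41.8 CPM in siNC, SD, n = 6), and so were progenitor and astroglial markers (VIM at 3550 ± 109, NES at 1118 ± 58.8, SOX2 at 621 ± 20.6, GFAP at 616 ± 82.0 and the cycling marker MKI67 at 205 ± 16.8 CPM, SD, n = 6). Summed over each list in siNC, 10 progenitor markers ran from 6272 to 6601 CPM and 12 neuron markers from 3306 to 3717 CPM. These sums are not scaled by gene length, and VIM alone, at 3550 CPM, weighs most in the progenitor sum. They therefore do not rank the cell types. TUBB3 and RBFOX3, both used to define neurons, were at only 14.2 ± 0.629 and 1.27 ± 0.148 CPM in siNC (SD, n = 6). Of the same list, STMN2 stood at 484 ± 37.4 and GAP43 at 452 ± 27.2 CPM in siNC (SD, n = 6), both picked after their values were seen. Exon overlap with other genes was looked up only for the pathway genes, so its part in the TUBB3 count is not known. The markers thus go partly against the label of neuron, and bulk RNA does not show whether 1 or several cell types carried them. In bulk RNA, fewer cells of a type and less RNA per cell cannot be told apart.

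In this pathway, secreted dimeric ligands bring together type II and type I receptor kinases at the cell surface. The type I receptor then phosphorylates receptor-regulated SMADs: SMAD1, SMAD5 and SMAD9 for BMPs, SMAD2 and SMAD3 for TGF-beta and activins. These join the common partner SMAD4 and enter the nucleus, where the ID genes are classic BMP targets, while SMAD6 and SMAD7 are induced as feedback inhibitors. In the developing nervous system BMPs pattern dorsal cell types and favour glial over neuronal fates, and TGF-beta acts on glia, matrix and neuronal survival.

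DNA letters that SMAD proteins are known to bind were looked for in the 250 bases before the RefSeq start of each gene (GRCh38.p14), a window held for 33 of the 36 genes. The letters were GTCTG on either strand (CAGAC on the other), the palindrome GTCTAGAC, and GGCGCC, which also reads the same on both strands and is the core of a GC-rich element in BMP targets. These 3 motifs do not contain one another. The promoters below include those of 3 genes lower in siZCC, from separate layers of the pathway: LTBP1, TGFB3 and SMAD7. Each of these windows held GTCTG or its complement 2 times. So did the windows of TGFB2, BMPR2, GREM1 and BAMBI, which were not called. Of the other genes lower in siZCC, the windows of BMP5, TGFBR2 and SMAD1 held none of the motifs. That of TGFBR1 held GTCTG 1 time. The last promoter below is that of SMAD6, the only member whose window held the palindrome. Capitals mark the matches. LTBP1 is read from chr2:32946703-32946952 on the plus strand, TGFB3 from chr14:75983012-75983261 and SMAD7 from chr18:48950966-48951215, both on the minus strand, and SMAD6 from chr15:66701986-66702235 on the plus strand.
LTBP1: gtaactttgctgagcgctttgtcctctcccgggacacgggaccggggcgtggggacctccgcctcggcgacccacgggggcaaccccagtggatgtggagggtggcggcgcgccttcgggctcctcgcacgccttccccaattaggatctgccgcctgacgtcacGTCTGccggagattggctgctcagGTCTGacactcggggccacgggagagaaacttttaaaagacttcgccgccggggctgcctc
TGFB3: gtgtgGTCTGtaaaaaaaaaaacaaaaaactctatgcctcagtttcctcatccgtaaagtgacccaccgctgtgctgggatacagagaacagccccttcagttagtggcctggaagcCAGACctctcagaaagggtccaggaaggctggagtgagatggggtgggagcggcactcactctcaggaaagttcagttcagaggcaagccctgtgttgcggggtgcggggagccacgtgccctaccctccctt
SMAD7: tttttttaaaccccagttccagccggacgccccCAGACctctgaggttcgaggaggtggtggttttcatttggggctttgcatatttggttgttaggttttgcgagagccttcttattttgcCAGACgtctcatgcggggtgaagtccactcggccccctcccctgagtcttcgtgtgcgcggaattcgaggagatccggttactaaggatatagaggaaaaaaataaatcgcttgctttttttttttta
SMAD6: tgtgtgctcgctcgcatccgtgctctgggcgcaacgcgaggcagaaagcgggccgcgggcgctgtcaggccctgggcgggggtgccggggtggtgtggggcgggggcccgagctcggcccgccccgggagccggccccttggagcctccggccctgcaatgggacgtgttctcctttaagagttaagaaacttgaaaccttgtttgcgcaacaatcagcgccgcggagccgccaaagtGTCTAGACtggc
LTBP1 held GTCTG with first bases 85 and 61 before the start, TGFB3 had matches 245 and 133 before it, and SMAD7 had matches 217 and 128 before it, all counted on the gene's strand. The palindrome in SMAD6 began 12 bases before the start. GTCTG or its complement was present in 12 of 33 members (36.4%), in 37.8% of all 27305 promoters and in 36.5% of those of genes tested here. GGCGCC was present in 9 of 33 members (27.3%) against 16.1% of all promoters and 24.3% of the 13340 promoters of genes tested here. The palindrome was present in 48 promoters, or 0.176%. By call, GTCTG was found in 4 of the 7 members with a window that were lower in siZCC, in 0 of the 5 that were higher and in 8 of the 21 that were not called. The same shares over all genes called lower or higher were not computed. With so few members, a link of the motif to direction was not tested. A match is a description of letters, not a binding site. RefSeq's start can differ from the outermost GENCODE v29 start: 12 of the 33 windows lie wholly inside the GENCODE gene. That of SMAD7 is among them, its first base 837 bases past the GENCODE start, whereas the RefSeq starts of LTBP1, TGFB3 and SMAD6 lie within 20 bases of the GENCODE ones.

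Levels were compared between genes as CPM per kilobase of exon, using exon lengths of GENCODE v29. ID4 was far above every other gene of the pathway, at 152 ± 1.01 CPM per kilobase in siNC (SD, n = 6). It encodes an inhibitor of basic helix-loop-helix factors that is abundant in neural progenitors. The next in order were BMP7 (27.2 ± 1.35) and TGFB1 (24.0 ± 1.19), 2 secreted ligands whose siNC ranges did not overlap, then LTBP1 (17.2 ± 2.05) and SMAD1 (15.04 ± 0.849), whose ranges did (all CPM per kilobase, SD, n = 6). TGFB2, ID2, BMPR2 and ACVR2A followed at 11.4 to 12.5 CPM per kilobase, and each overlapped its neighbour. TGFB2 shares 26.6% of its exon bases with TGFB2-OT1 on the same strand, a gene with a mean count of 0. How reads in shared bases were counted is not stated, so the level of TGFB2 may be understated.

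The lowest were TGFBR3, BMP2 and INHBA, at 0.215 to 0.254 CPM per kilobase and not separable from neighbour to neighbour, and below them GREM1 at 0.0832 ± 0.0163 (SD, n = 6). BMP7 and TGFB1 were thus the highest ligands, while BMP5 and BMP2 stood at 0.503 ± 0.102 and 0.251 ± 0.0854 CPM per kilobase (SD, n = 6). Among the ID genes the order was ID4, ID2 (12.4 ± 1.20), ID3 (2.33 ± 0.354) and ID1 (1.17 ± 0.259), and their siNC ranges did not overlap. With the longest transcript in place of all exons, TGFB3 stood at 4.64 in place of 2.55 and SMAD1 at 27.7 in place of 15.04 CPM per kilobase, so middle ranks depend on the length used.

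**Figure D1:**
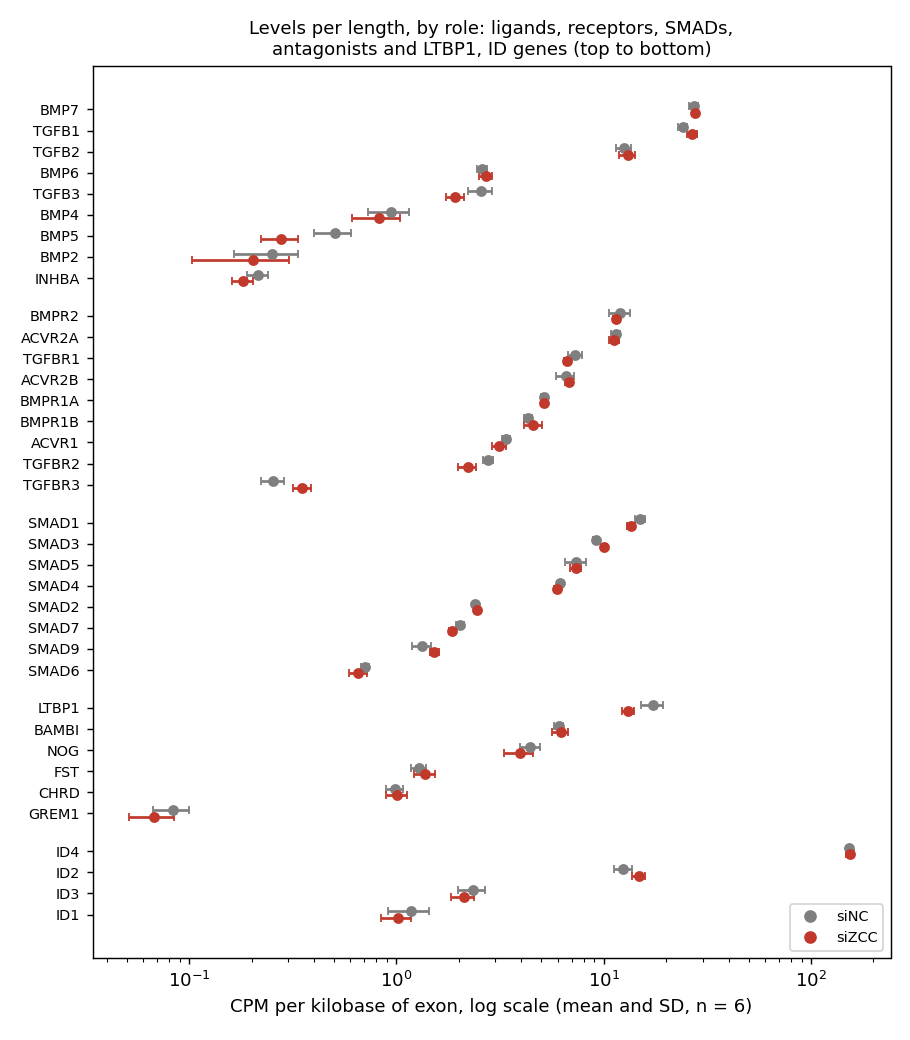
Level of each gene in CPM per kilobase of exon (log axis; points are means, bars SD, n = 6 libraries), siNC in grey and siZCC in red, grouped by role. ID4 stood at 152 in siNC and GREM1 at 0.0832, and BMP5, lower in siZCC, stood at 0.503 and 0.278.

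Between the groups, 12 of the 36 genes were called, meaning a Benjamini-Hochberg adjusted p below 0.05 over all genes tested, by the quasi-likelihood test of edgeR: 5 were higher in siZCC and 7 lower. Over all 24671 genes tested, 22.2% were called, 11.4% higher and 10.8% lower. The members' median log2 fold change was -0.04, against -0.0016 over all genes. Higher were TGFB1, TGFBR3, SMAD9, SMAD3 and ID2. Lower were BMP5, TGFB3, TGFBR2, TGFBR1, SMAD1, SMAD7 and LTBP1. The libraries of the groups did not overlap in 4 members, SMAD3 above and TGFBR2, SMAD7 and LTBP1 below, where 9.74% of all genes did not overlap (5.25% above, 4.5% below). Of the 12 changes, 7 were smaller than 20% in either direction, and in the largest BMP5 fell by 44.4%.

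**Figure D2:**
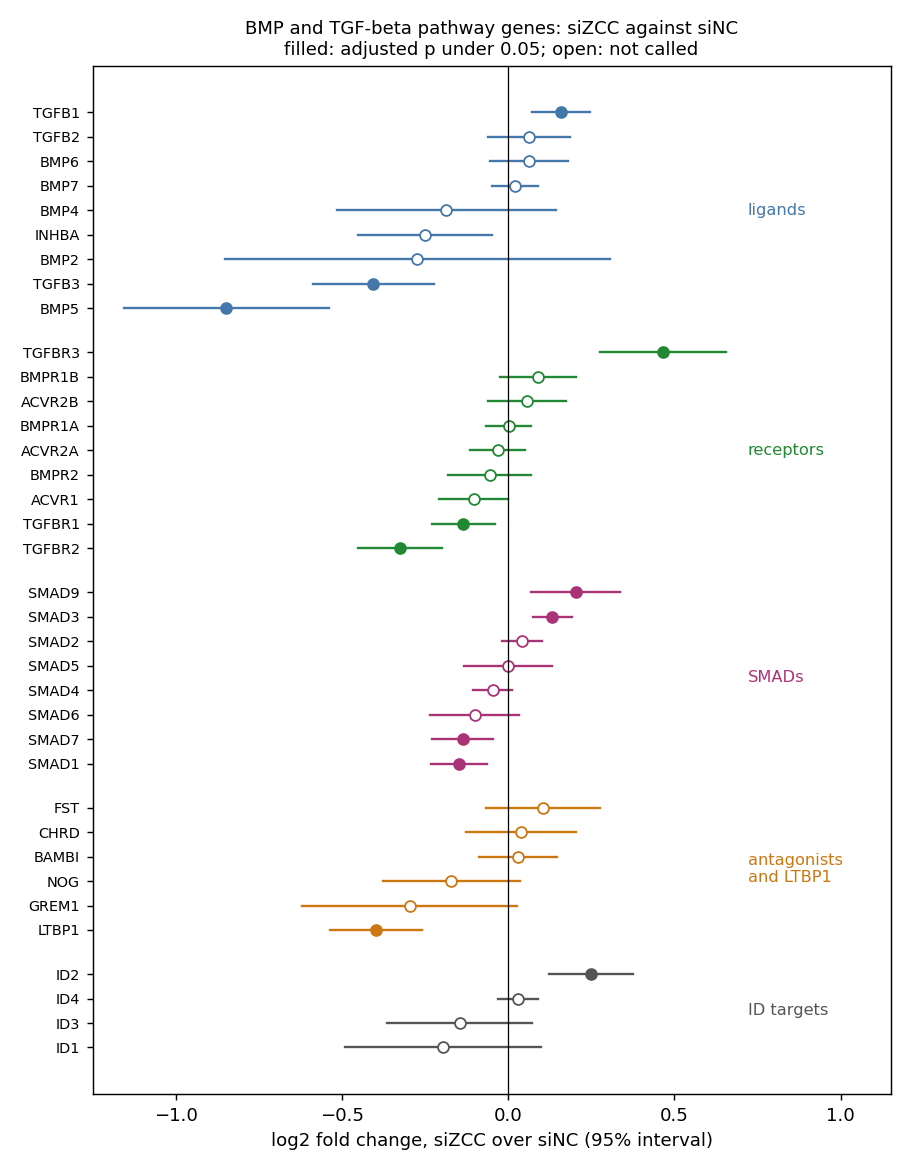
Log2 fold change of siZCC over siNC (x axis) with its 95% interval for the 36 genes, grouped by role; filled points have an adjusted p under 0.05. Every role holds points on both sides of 0, from BMP5 at -0.85 to TGFBR3 at 0.46.

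Of the 9 ligand genes, 1 rose and 2 fell. TGFB1, the TGF-beta isoform common in immune and glial cells, was at 70.2, 79.1 and 80.6 CPM in siNC and at 80.2, 88.4 and 92.4 CPM in siZCC (lowest, median, highest). Of the siZCC libraries, 5 lay above every siNC library, and siNC replicate 5 was the lowest of all. The rise was 0.16 on the log2 scale (SE 0.0409, adjusted p 0.0103). The gene lies on chromosome 19 from 41301587 to 41353911 (GENCODE v29, GRCh38, minus strand) and shares 6.64% of its exon bases with HNRNPUL1 on the other strand. Whether the counting used strand is not stated. HNRNPUL1 itself had a log2 fold change of 0.0076 (SE 0.0242, adjusted p 0.863).

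TGFB3, the isoform with the lowest level per length of the 3, fell. It was at 10.4, 13.1 and 14.2 CPM in siNC and 8.17, 9.55 and 10.5 CPM in siZCC (lowest, median, highest). Of the siZCC libraries 4 lay below every siNC library. The fall was 0.41 on the log2 scale (log2 fold change -0.41, SE 0.0862, adjusted p 0.00284). TGFB2, the third isoform, was at 58.2, 63.9 and 70.2 CPM in siNC and 58.7, 69.3 and 73.2 CPM in siZCC and was not called (0.06, 95% interval -0.06 to 0.19). So 1 isoform was higher, 1 was lower and 1 was not called.

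BMP5, on chromosome 6 from 55753645 to 55875564, had the largest change of all members in size. It was at 1.46, 2.05 and 2.52 CPM in siNC and 0.847, 1.02 and 1.47 CPM in siZCC, resting on 75 to 281 counts per library. Its siZCC replicate 6 reached just above the lowest siNC library, and the other 5 lay below all of them. The log2 fold change was -0.85 (SE 0.146, adjusted p 0.00058).

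The other BMP genes were not called. BMP7, the most abundant ligand, was at 138, 148 and 155 CPM in siNC and 143, 149 and 154 CPM in siZCC, and its interval was narrow (0.02, 95% interval -0.05 to 0.09). BMP6 had 0.06 (-0.06 to 0.18). BMP4, a dorsalising signal, had -0.19 (-0.52 to 0.14), and BMP2 -0.27 (-0.85 to 0.31).

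The wide intervals of BMP2 and BMP4 go with a large spread between libraries: BMP2 ran from 0.483 to 1.35 CPM in siNC and from 0.387 to 1.26 CPM in siZCC. INHBA, the activin A subunit, had -0.25 (95% interval -0.45 to -0.05) with an adjusted p of 0.0705 and was not called. It was called without siNC replicate 4 (adjusted p 0.0371) or without siZCC replicate 4 (0.0380).

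Of the 9 receptor genes, 1 rose and 2 fell, and the 3 were the receptors named for TGF-beta. TGFBR2, the type II receptor that binds TGF-beta first, was at 11.97, 13.2 and 13.97 CPM in siNC and 8.91, 10.5 and 11.6 CPM in siZCC (lowest, median, highest). The groups did not overlap. It fell by 0.33 on the log2 scale (log2 fold change -0.33, SE 0.0599, adjusted p 0.000987), and lies on chromosome 3 from 30606502 to 30694142. TGFBR1, its type I partner kinase, was at 46.5, 49.3 and 55.8 CPM in siNC and 43.2, 46.0 and 47.7 CPM in siZCC. The change was small (-0.14, SE 0.0449, adjusted p 0.0380). Leaving out any 1 of siNC replicates 1, 5 and 6 and siZCC replicates 1, 3, 4, 5 and 6 ended this call, with adjusted p from 0.0520 to 0.106.

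TGFBR3, betaglycan, a coreceptor without kinase activity that presents ligand, rose. It was at 1.87, 2.23 and 2.62 CPM in siNC and 2.56, 3.05 and 3.44 CPM in siZCC, and 5 siZCC libraries lay above every siNC library. Its log2 fold change was 0.46 (SE 0.0901, adjusted p 0.00145), on 179 to 362 counts per library.

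The BMP and activin receptors were not called. BMPR1A, a type I receptor for BMPs, was at 55.5, 58.9 and 61.5 CPM in siNC and 56.5, 58.1 and 62.4 CPM in siZCC (0.0016, 95% interval -0.07 to 0.07). BMPR2, the main BMP type II receptor, had -0.06 (-0.18 to 0.07), and the type II receptors ACVR2A and ACVR2B had -0.03 (-0.11 to 0.05) and 0.06 (-0.06 to 0.17).

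The intervals of these 4 genes thus ended at -0.18 and 0.17 at most. BMPR1B had 0.09 (-0.02 to 0.20), and was called only with the correction for GC content and length (0.12, adjusted p 0.0451). ACVR1, a type I receptor also known as ALK2, had -0.10 (-0.21 to -0.00076, adjusted p 0.142), and was called only without siZCC replicate 2 (-0.14, adjusted p 0.0283).

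Of the 8 SMAD genes, 2 rose and 2 fell, and the largest change was 0.20 on the log2 scale. SMAD3, which carries TGF-beta and activin signals, was at 79.1, 84.1 and 85.8 CPM in siNC and 88.2, 90.9 and 95.7 CPM in siZCC. All 6 siZCC libraries lay above all siNC libraries. The rise was 0.13 (SE 0.0285, adjusted p 0.00296), or 9.68%. SMAD2, the close relative in the same branch, was at 83.9, 87.2 and 89.9 against 85.3, 89.3 and 93.4 CPM and was not called (0.04, 95% interval -0.02 to 0.10).

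SMAD1, of the BMP branch, was at 82.8, 92.5 and 97.6 CPM in siNC and 77.8, 82.3 and 87.4 CPM in siZCC (-0.15, SE 0.0399, adjusted p 0.0129), with 3 siZCC libraries below all siNC libraries. SMAD9, the least abundant of that branch, went the other way, at 6.73, 7.39 and 8.97 CPM in siNC and 8.18, 8.62 and 9.29 CPM in siZCC (0.20, SE 0.0639, adjusted p 0.0303). SMAD5, the third, was centred on 0 (95% interval -0.13 to 0.13). Leaving out any 1 of siNC replicates 1, 3, 4 and 6 and siZCC replicates 4 and 5 ended the SMAD9 call, with adjusted p from 0.0529 to 0.0673.

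SMAD7, an inhibitory SMAD that TGF-beta and BMP signals induce, was at 9.75, 10.2 and 10.9 CPM in siNC and 8.68, 9.37 and 9.60 CPM in siZCC. The groups did not overlap, and the log2 fold change was -0.14 (SE 0.0431, adjusted p 0.0302). With the replicate number as a block its adjusted p was 0.0731, with no filter on low counts 0.0603, and with any 1 of siNC replicates 1, 4 and 6 and siZCC replicates 4 and 6 left out it was 0.0573 to 0.0724. SMAD6, the inhibitor with the palindrome printed above, was at 5.88, 5.92 and 6.58 CPM in siNC and 4.81, 5.66 and 6.24 CPM in siZCC and was not called (-0.10, 95% interval -0.24 to 0.03). SMAD4, shared by both branches, had -0.05 (-0.10 to 0.01). With any 1 of siNC replicates 1, 4 and 6 and siZCC replicate 4 left out, 2 of the 8 SMAD genes were called in place of 4.

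Of the antagonists and the matrix protein LTBP1, 1 of 6 changed. LTBP1 binds the latent TGF-beta complex and tethers it to the extracellular matrix. It was at 112, 124 and 148 CPM in siNC and 87.7, 97.3 and 103 CPM in siZCC (lowest, median, highest), and all 6 siZCC libraries lay below all siNC libraries. It fell by 0.40 on the log2 scale (log2 fold change -0.40, SE 0.0654, adjusted p 4e-04), or 24.1%, and kept its call in all 21 alternatives. So did BMP5, TGFB1, TGFB3, TGFBR2, TGFBR3, SMAD1, SMAD3 and ID2. LTBP1 lies on chromosome 2 from 32946972 to 33399509.

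None of the 5 antagonists was called. NOG, encoding noggin, which binds BMPs and blocks their receptors, was at 6.87, 8.45 and 9.43 CPM in siNC and 5.63, 7.42 and 8.93 CPM in siZCC (-0.17, 95% interval -0.38 to 0.03). CHRD, encoding chordin, another BMP trap, had 0.04 (-0.13 to 0.20). FST, encoding follistatin, which binds activins, had 0.11 (-0.07 to 0.28). GREM1, a BMP antagonist near 1 CPM, had -0.30 (-0.62 to 0.03), and BAMBI, a receptor-like protein without kinase activity, 0.03 (-0.09 to 0.15).

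Of the 4 ID genes, 1 changed. ID2 was at 24.5, 27.3 and 31.0 CPM in siNC and 29.6, 33.2 and 35.03 CPM in siZCC, with 4 siZCC libraries above every siNC library. It rose by 0.25 (SE 0.0598, adjusted p 0.0065). Its antisense neighbour ID2-AS1, which shares 38 exon bases with it (1.72% of its exon bases), also rose, by 0.61 (SE 0.0725, adjusted p 2.27e-05), from 10.5 ± 1.46 to 16.0 ± 0.716 CPM (SD, n = 6 each). Without a stated strand setting, reads from the 2 in the shared stretch cannot be told apart.

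ID1 and ID3, which respond most directly to BMP signals in many cells, had log2 fold changes of -0.20 (95% interval -0.49 to 0.10) and -0.15 (-0.36 to 0.07) and were not called. ID1 ran from 1.08 to 1.96 CPM in siNC and from 0.984 to 1.54 CPM in siZCC, on 79 to 195 counts. ID3 ran from 3.22 to 4.81 and from 3.16 to 4.29 CPM. ID4 was at 353, 357 and 359 CPM in siNC and 346, 362 and 388 CPM in siZCC, and was not called either (0.03, -0.03 to 0.09). Its siNC libraries were the most alike of all members, with a coefficient of variation of 0.664%, against 4.32% in siZCC.

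**Figure D3:**
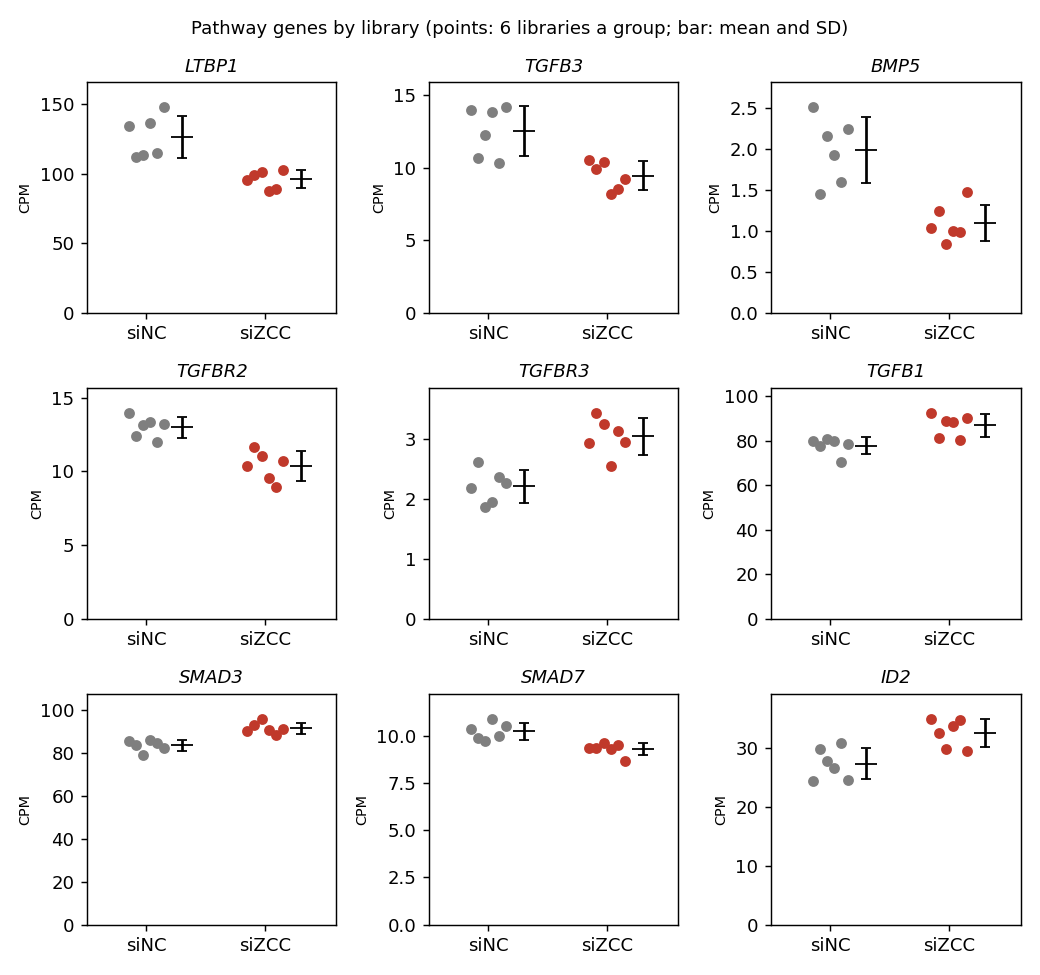
CPM (y axis, from 0) in each of the 6 siNC (grey) and 6 siZCC (red) libraries for 9 called members, with the mean and SD beside the points. In LTBP1, TGFBR2 and SMAD7 every siZCC point lies below every siNC point, in SMAD3 every one lies above, and the other 5 genes overlap.

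Other genes of the pathway were read from 6 lists. They hold 135 genes, each counted once though some, such as PMEPA1 and THBS1, are in more than 1 list. Of these 120 were tested; 12 were higher and 26 lower, or 31.7% called, with a median log2 fold change of -0.07. The largest share was among the TGF-beta target genes. Of 25 tested, 3 rose and 9 fell (36% lower, where 10.8% of all genes were), and their median was -0.27. Of the falls, 4 had no overlap between the groups. The list was chosen with earlier results of these data known, so its share describes these genes and is no test of TGF-beta signalling. The smallest p among falls belonged to PMEPA1, a TGF-beta induced protein that limits SMAD signalling, and ACTA2, smooth muscle actin. PMEPA1 was at 40.6, 49.4 and 53.2 CPM in siNC and 30.1, 32.3 and 34.5 CPM in siZCC (-0.57, SE 0.0566, adjusted p 4.42e-06). ACTA2 was at 174, 216 and 241 CPM in siNC and 116, 149 and 164 CPM in siZCC (-0.57, SE 0.0821, adjusted p 1.23e-04). In both genes all siZCC libraries were below all siNC libraries.

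The other falls, named after their values were seen, were in TAGLN (-0.75), CCN2 (-0.59), THBS1 (-0.66), TGFBI (-1.11), SNAI2 (-0.44), IER3 (-0.41) and JUNB (-0.18). The rises were in CDKN1A (0.59, SE 0.0705), which p53 also induces, VEGFA (0.20, SE 0.0507) and BHLHE40 (0.13). ACTA2, TAGLN, CCN2 and THBS1 are also known targets of the SRF and YAP pathways, so the list is not specific to TGF-beta. The matrix genes FN1 and COL1A1, textbook TGF-beta targets, were not called: FN1 had -0.39 (SE 0.160) and COL1A1 -0.59 (SE 0.408), the latter at 128 ± 88.6 CPM in siNC (SD, n = 6), a very wide spread.

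Of 11 BMP target genes tested beyond the ID genes, 1 rose and 2 fell, with a median of -0.09. HEY2, a bHLH repressor that Notch also induces, rose from 56.8 ± 1.56 to 69.4 ± 3.45 CPM (SD, n = 6 each; 0.29, SE 0.0338, adjusted p 1.9e-05), and MSX1, a homeobox gene of dorsal identity, fell from 26.4 ± 3.09 to 21.4 ± 1.62 CPM (-0.30, SE 0.0696, adjusted p 0.00474). In both, the groups did not overlap. ATOH8 fell by 0.31 (log2 fold change -0.31, SE 0.0800, adjusted p 0.0112).

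**Figure D4:**
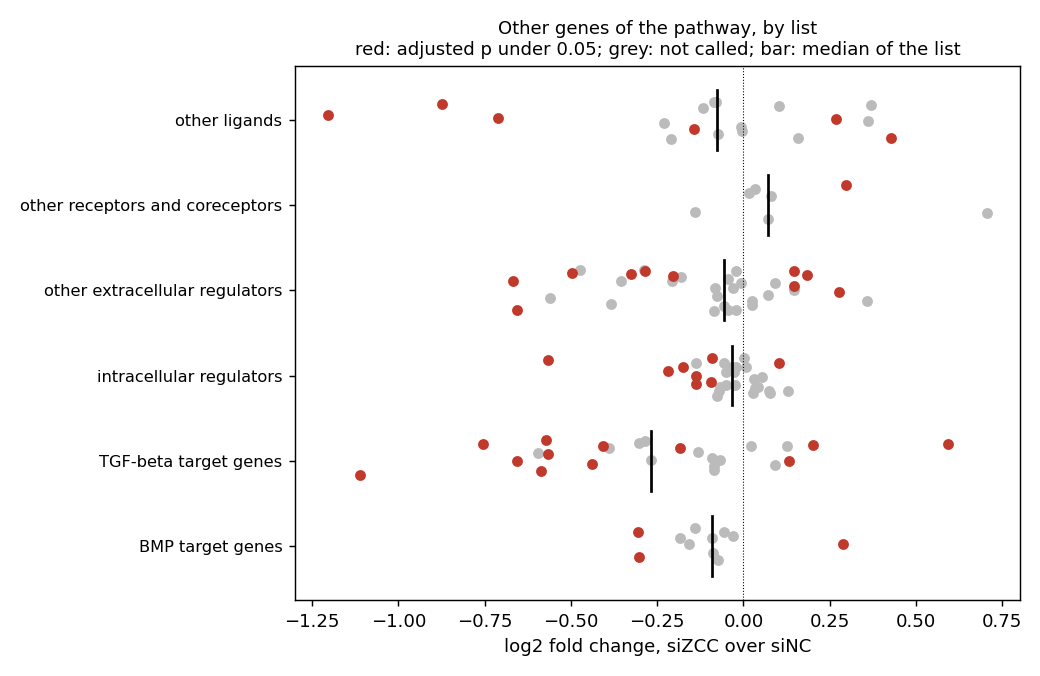
Log2 fold change of siZCC over siNC (x axis) for each tested gene of the 6 further pathway lists; red points have an adjusted p under 0.05 and the black bar is the list's median. The median of the TGF-beta target genes is -0.27, and those of the other lists lie between -0.09 and 0.07.

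Among 18 other ligands, 2 rose and 4 fell. LEFTY2, a secreted inhibitor of nodal signalling, fell from 2.26, 3.97 and 5.41 CPM in siNC to 1.25, 1.69 and 1.98 CPM in siZCC (lowest, median, highest) without overlap (-1.20, SE 0.189, adjusted p 2.76e-04). GDF3 fell by 0.71 (log2 fold change -0.71, SE 0.159), and GDF7, a roof plate ligand, rose by 0.43 (SE 0.123), both at about 1 CPM or less. INHA, encoding the inhibin alpha subunit, rose by 0.27 (SE 0.0914, adjusted p 0.0427), a call lost with the replicate block (adjusted p 0.0602), with no filter (0.114), with the GC and length correction (0.0736) and with any 1 of the siNC replicates or of siZCC replicates 1, 2 and 3 left out (0.0539 to 0.115).

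Of 7 other receptors and coreceptors, 1 rose. RGMA, a repulsive guidance molecule that also acts as a BMP coreceptor, was at 738, 793 and 835 CPM in siNC and 871, 965 and 1061 CPM in siZCC (0.30, SE 0.0417, adjusted p 1.01e-04), without overlap. The count was 2 with a mean count of at least 50, in DESeq2, in limma voom and with the GC and length correction, and 3 without siNC replicate 2 or 5 or siZCC replicate 4.

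Of 33 other extracellular regulators, 4 rose and 6 fell. FSTL1, a secreted follistatin-like protein, fell from 545 ± 59.3 to 386 ± 37.0 CPM (SD, n = 6 each; -0.50, SE 0.0692, adjusted p 9.26e-05), and CER1, near 0.5 CPM, by 0.67 (log2 fold change -0.67, SE 0.154). FSTL3, which binds activins, rose by 0.28 (SE 0.0458), and LTBP3, a relative of LTBP1, by 0.19 (SE 0.0419). LTBP1 and LTBP3 thus moved in opposite directions, LTBP3 from 228 ± 12.04 to 259 ± 15.8 CPM (SD, n = 6 each). Without siNC replicate 6, 6 genes of this list were called in place of 10.

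Of 29 intracellular regulators, 1 rose and 7 fell, most by under 0.25. After PMEPA1, the smallest p among falls was that of SMURF2, a ubiquitin ligase that acts on receptors and SMADs, from 67.7 ± 3.47 to 58.1 ± 5.02 CPM (SD, n = 6 each; -0.22, SE 0.0499, adjusted p 0.0045). TGIF1, a SMAD corepressor, rose by 0.10 (SE 0.0337, adjusted p 0.0348), a call lost with upper quartile scaling (0.0518), no filter (0.0747), the replicate block (0.0549) and with any 1 of siNC replicates 4, 5 and 6 and siZCC replicates 3 and 6 left out (0.0651 to 0.0985). The count of 8 was 5 with no filter or the replicate block and without siNC replicate 1 or siZCC replicate 1 or 3, and 4 without siNC replicate 4.

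Markers of other cell types were read beside these changes, as TMM-scaled CPM summed over each list. Their calls stand beside 11.4% called higher and 10.8% called lower over all genes tested. Fibroblast or mesenchymal markers (10 genes, 1 higher and 5 lower) ran from 347 to 591 CPM in siNC and 316 to 449 CPM in siZCC, and hold COL1A1, which is also in the TGF-beta target list. COL1A1 was not called, and its wide spread (128 ± 88.6 CPM in siNC, SD, n = 6) enters the range of this sum. The 1 higher gene was PDGFRB, from 83.5 ± 3.22 to 112 ± 10.2 CPM (SD, n = 6 each). Roof plate or choroid plexus markers (10 genes, 4 tested, 3 lower) ran from 33.3 to 40.2 and from 27.8 to 32.0 CPM, with TTR, LMX1A, MSX2, WNT3A, RSPO1 and CLIC6 each averaging under 0.1 CPM. MSX1, described above as a BMP target, is 1 of the 3 and, at 26.4 CPM in siNC, weighs most in this sum. AQP1, the next highest at 6.13 CPM in siNC, was not called. Endothelial markers (6 genes, 5 tested, 2 lower) ran from 12.4 to 17.6 and from 8.62 to 10.7 CPM, with CDH5 averaging under 0.1 CPM. The 2 lower were TEK and CLDN5, which weigh most in this sum, at 9.46 and 4.35 CPM in siNC. PECAM1 (0.268 CPM in siNC), VWF (0.0894) and KDR (0.950) were not called.

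Neural crest markers (9 genes, 6 tested, 2 lower) ran from 167 to 204 and from 168 to 198 CPM, with SOX10, TFAP2B and PAX3 under 0.1 CPM on average, and SNAI2, also a TGF-beta target, among the 2. Neuron markers (12 genes, 1 higher and 6 lower) ran from 3306 to 3717 and from 3007 to 3397 CPM. Progenitor markers (10 genes, 4 higher and 3 lower) ran from 6272 to 6601 and from 6176 to 6690 CPM, and astrocyte markers (8 genes, 3 higher and 1 lower) from 1637 to 1860 and from 1704 to 2025 CPM.

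Microglial markers (8 genes, 2 tested, 0 called) ran from 1.22 to 2.28 and from 1.299 to 2.09 CPM, and 6 of the 8 were under 0.1 CPM. Pluripotency markers (6 genes, 3 tested, 2 higher) ran from 15.4 to 17.0 and from 19.99 to 21.9 CPM. The part of cell composition in the changes of the ligand, receptor, SMAD, LTBP1 and target genes was not tested.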

How the data were processed

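Whole-number counts per gene symbol, 1 column per library, were deposited by the authors. The submitters' processing notes list bcl2fastq 2.17, STAR 2.7.6a, featureCounts 2.0.1 and GRCh38. A directional NEBNext kit made the libraries from Qiazol lysates, per the labels' protocols. The annotation and the strand setting of the counting are not given in the sources used here.

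Counts were analysed in R 4.3.3 with edgeR 4.0.16. Genes kept by filterByExpr (24671) were scaled by TMM, and siZCC was compared with siNC over all 12 libraries by the quasi-likelihood test without covariates, with Benjamini-Hochberg adjustment over all genes kept and a threshold of 0.05. The SE is the log2 fold change divided by the square root of F, and 95% intervals use the fit's degrees of freedom. CPM are TMM-scaled. The test was checked on simulated counts. The spread between libraries (biological coefficient of variation 6.55%) and, in genes with few counts, counting error limit the precision.

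Alternatives were DESeq2 size factors, upper quartile scaling, no filter, a mean count of at least 50, DESeq2 1.42.0, limma 3.58.1 voom, the replicate number as a block, a block for IL1B level, an offset for GC content and length, and leaving out each library in turn. Levels per length used GENCODE v29 exons, in which 92.1% of the symbols were found once; promoters are RefSeq's. Figures were drawn with matplotlib 3.10.9. Members, lists and the split by IL1B were chosen with earlier results of these data known. Named genes are all members, ZCCHC17 and, in each further list, the 2 smallest p with an adjusted p under 0.05 in each direction; others are said to be chosen after their values were seen. Proteins, splicing and reads were not analysed here.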

Additional observations from a re-analysis of the deposited data

Results flagged for a closer look

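In each group of 6, the highest and lowest libraries were compared with the rest for library totals, the members, ZCCHC17 and the other genes named by rule, or 112 groups. A gap to the nearest library, as a share of the group's range, above Dixon's 95% critical value was found in 8, where chance gives about 1 in 20, or 5.6.

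The total of siNC replicate 4 was 90756000 counts (rounded) against 109970000 to 120020000 in the others (gap 0.657). TGFB1 was lowest in siNC replicate 5, at 6.13 in log2 CPM against 6.28 to 6.33 (gap 0.719). SMAD6 was highest in siNC replicate 6, at 2.72 against 2.56 to 2.58 (gap 0.857). HEY2 was lowest in that library, at 5.75 against 5.82 to 5.86 (gap 0.634).

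Replicate 2 of siZCC stood apart 3 times: it was highest for ACVR2A (6.39 against 6.19 to 6.23, gap 0.776) and SMAD4 (6.38 against 6.26 to 6.30, gap 0.651) and lowest for MSX1 (4.19 against 4.41 to 4.48, gap 0.754). SMAD7 was lowest in siZCC replicate 6 (3.12 against 3.22 to 3.27, gap 0.673).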

How the results depend on the processing

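Of the 36 members, 12 were called; the count ran from 11 to 13 under the other scalings, filters, tests, blocks and the GC and length offset, and from 9 (without siNC replicate 1 or 6) to 13 (without siZCC replicate 2) when a library was left out. The 38 further pathway genes called became 36 to 41 and, with a library left out, 28 to 39; the 5481 genes called in all became 4785 to 6155 and 4484 to 5626. The log2 fold change of ZCCHC17, -2.51, kept its call. Replicate numbers do not pair the libraries (correlation of deviations -0.077 to 0.0179). With the replicate number as a block 11 members were called, SMAD7 losing its call. Members did not separate by IL1B level (smallest adjusted p 0.624), where 0.146% of genes did.

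Signs turned only in members whose values lie near 0 and were not called in either fit. SMAD5 turned to -0.000843 with DESeq2 size factors, -0.0080 with upper quartiles, -0.0063 with no filter, -0.000933 in DESeq2, -0.00095 with the IL1B block, and ran from -0.0366 to 0.0385 with libraries left out. BMPR1A turned to -0.0069 with upper quartiles and -0.0046 with no filter, and ran from -0.0165 to 0.0164. CHRD turned to -0.0135 with the GC and length offset and ran from -0.0056 to 0.0855, and BAMBI ran from -0.0040 to 0.0677. The members with the fewest counts, and so the largest relative counting error, were BMP2, BMP5, GREM1 and ID1, at 29 to 281 counts per library.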

Other observations

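The control libraries differed among themselves in a set of pathway genes, a pattern noticed after the values were seen. In 7 of the 36 members, TGFB2, TGFB3, ACVR1, TGFBR2, SMAD1, SMAD7 and LTBP1, the same 3 siNC libraries, replicates 1, 4 and 6, were the highest of the 6, out of 20 possible sets of 3. That is 19.4% of the members, and the same holds for 7.31% of the 24671 genes tested, so the pattern is not limited to this pathway. LTBP1 stood at 134, 136 and 148 CPM in these and at 112, 113 and 115 CPM in replicates 2, 3 and 5. TGFB3 stood at 13.999, 13.85 and 14.2 against 10.7, 12.3 and 10.4 CPM. Of the other genes named by rule, PMEPA1, SMURF2, FSTL1, LEFTY2 and ACTA2 had the same 3 libraries highest; LEFTY2 stood at 4.69, 4.90 and 5.41 against 2.82, 3.24 and 2.26 CPM. ID2, INHBA, RGMA, CDKN1A and INHA had replicates 2, 3 and 5 highest, as did 8.76% of all genes tested. Another set was nearly as common among the members. Replicates 1, 5 and 6 were highest in BMPR1A, BMPR1B, TGFBR1, BMPR2, SMAD5 and SMAD4. The share of all genes with that set was not computed. The split of replicates 1, 4 and 6 from 2, 3 and 5 is not that of IL1B. IL1B was high in siNC replicates 2, 3 and 6 (619 to 1512 counts) and low in 1, 4 and 5 (4 to 12 counts). Of the 7 members called lower in siZCC, 5 are among those with replicates 1, 4 and 6 highest. The same share over all genes called lower was not computed, and a link to the falls was not tested. Without siNC replicate 6 the fall of LTBP1 was -0.35 and without siNC replicate 2 it was -0.43.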
